A study of Mus musculus with 8 samples.

Results

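Binding of the nuclear factor I proteins NfiA, NfiB and NfiX was compared between 2 genetic backgrounds of mice. The comparison used 6 of the 8 samples of the series, the 3 chromatin immunoprecipitation (ChIP-seq) libraries labelled Mixed and the 3 labelled CD1, and each Mixed library was set against the CD1 library of the same factor. The 2 input samples, one per background, were not analysed here. All 6 libraries came from granule neuron progenitors of the cerebellum at postnatal day 7, obtained as a cell suspension after papain digestion. CD1 is an outbred stock, and the labels describe the Mixed background only as one that resembles an outbred CD1 strain. No transgene, treatment or other genotype is named for either group. Antibodies were Abcam ab41851 for NfiA and Sigma Aldrich SAB1401263 for NfiX in both backgrounds, and the sample labels and the series text name different antibodies for NfiB.

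Each factor and background had 1 library, so no value has a biological replicate, and the labels do not say whether libraries of one background came from the same animals or the same chromatin. Where a test is given, the 3 factors served as the paired observations, and a p-value measures only the spread between factors. The total read number of each library is not part of the peak lists, so depth is known only through the peaks. Merging overlapping peaks of the 6 lists gave 46070 regions, of which 25899 held a peak of NfiA, 42814 a peak of NfiB and 21443 a peak of NfiX in at least one background. A region with a peak of a factor in Mixed and none in CD1 was counted as gained, the reverse as lost, and a region with peaks in both as shared. In 33985 regions at least 1 factor was gained or lost.

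Nuclear factor I proteins bind DNA as dimers at a palindrome made of TTGGC and its reverse complement, and more weakly at a single arm. Granule neuron progenitors divide in the outer layer of the postnatal cerebellum under Sonic hedgehog, then leave the cell cycle, extend axons and migrate inward, and nuclear factor I proteins are known regulators of that maturation. A peak shows where a factor was bound, not whether a nearby gene was expressed.

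The 9 sequences that follow show what shared and changed sites look like in the mouse reference genome (build mm10; sequence of GENCODE transcripts, or of RefSeq promoters, GRCm38.p6), not in the mice studied. Each runs 50 bases to either side of a summit on the plus strand, in lower case, with the palindrome (TTGGC and GCCAA, 5 bases apart) or the single element TTGGCA, on either strand, in capitals. Only summits inside an annotated exon or a promoter could be read. The first pair were shared by all 6 libraries, at the promoter of Oasl1 (chr5:114923092-114923192) and in an intron of Tle3, a co-repressor gene (chr9:61405311-61405411), and were picked because they hold a palindrome, with the highest NfiX summits in Mixed among such sites. The next 5 were gained in 2 or 3 factors, and had the highest mean Mixed summits of the 28 gained sites that could be printed, whatever their letters. They lie in an intron of Sema4f, a semaphorin gene (chr6:82917180-82917280), at the promoter of Il16 (chr7:83735581-83735681), in an intron of Dip2b near Atf1 (chr15:100199840-100199940), in an intron of Wdr86 (chr5:24713408-24713508) and near Helt (chr8:46365878-46365978). The last pair are coding exons of Esr1 (chr10:4997862-4997962) and Cdk2 (chr10:128699521-128699621) where only NfiA in CD1 had a peak.
Oasl1 promoter, shared: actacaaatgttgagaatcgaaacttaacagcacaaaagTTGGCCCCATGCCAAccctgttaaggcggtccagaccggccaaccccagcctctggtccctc
Tle3 intron, shared: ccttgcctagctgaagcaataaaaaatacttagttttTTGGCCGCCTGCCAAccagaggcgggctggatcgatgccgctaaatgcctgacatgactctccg
Sema4f intron, gained: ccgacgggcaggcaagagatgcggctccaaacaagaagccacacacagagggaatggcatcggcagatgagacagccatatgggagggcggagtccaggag
Il16 promoter, gained: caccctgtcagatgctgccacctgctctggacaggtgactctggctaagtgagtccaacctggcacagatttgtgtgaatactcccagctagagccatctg
Dip2b intron near Atf1, gained: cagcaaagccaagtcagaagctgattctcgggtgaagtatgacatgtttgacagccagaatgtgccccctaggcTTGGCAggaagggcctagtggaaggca
Wdr86 intron, gained: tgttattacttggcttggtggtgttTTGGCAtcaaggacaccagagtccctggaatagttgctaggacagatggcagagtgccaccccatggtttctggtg
near Helt, gained: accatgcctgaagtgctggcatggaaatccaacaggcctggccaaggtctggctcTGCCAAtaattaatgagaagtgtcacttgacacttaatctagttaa
Esr1 coding exon, NfiA in CD1 alone: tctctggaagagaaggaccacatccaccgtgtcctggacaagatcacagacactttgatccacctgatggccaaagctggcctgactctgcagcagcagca
Cdk2 coding exon, NfiA in CD1 alone: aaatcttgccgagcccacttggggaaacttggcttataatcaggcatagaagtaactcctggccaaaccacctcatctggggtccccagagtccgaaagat

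The Oasl1 and Tle3 sites held the full palindrome by choice. Of the 5 gained sites, those in Dip2b, in Wdr86 and near Helt held a single TTGGCA, and those in Sema4f and at Il16 held neither. Over all 28 printable gained sites, 9 held TTGGCA and 0 the palindrome. The Esr1 and Cdk2 windows held neither, though both have the bare arm TTGGC or its reverse complement, which was not counted in any set. At Oasl1 the summit held 66 fragments for NfiA in CD1 and 95 in Mixed, 89 and 82 for NfiB, and 68 and 89 for NfiX. At Tle3 the values were 60 and 77 for NfiA, 85 and 74 for NfiB, and 48 and 72 for NfiX. These fragment numbers were recovered from the fold enrichment and p-value that the authors deposited for each peak, and they are not scaled between libraries. Both sites were bound by every factor in both backgrounds.

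Within NfiA, 13713 regions were shared, 9309 gained and 2877 lost, so that gains made up 35.9% and losses 11.1% of the regions of that factor. NfiB moved the other way, with 26091 shared regions, 6764 gained (15.8%) and 9959 lost (23.3%). For NfiX, 6844 regions were shared, 14090 gained (65.7%) and 509 lost (2.37%). These counts follow the lengths of the lists: the NfiA list held 16993 peaks in CD1 and 23541 in Mixed, that of NfiB 36431 and 33283, and that of NfiX 7497 and 21443. With the longer list of each factor cut to the length of the shorter by p-value, gained and lost regions numbered 4740 and 4575 for NfiA, 7873 and 7980 for NfiB, and 2451 and 2368 for NfiX. Lists of equal length give near equal numbers by construction, so those values do not bear on the direction, which could not be tested with 1 library per group.

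**Figure D1:**
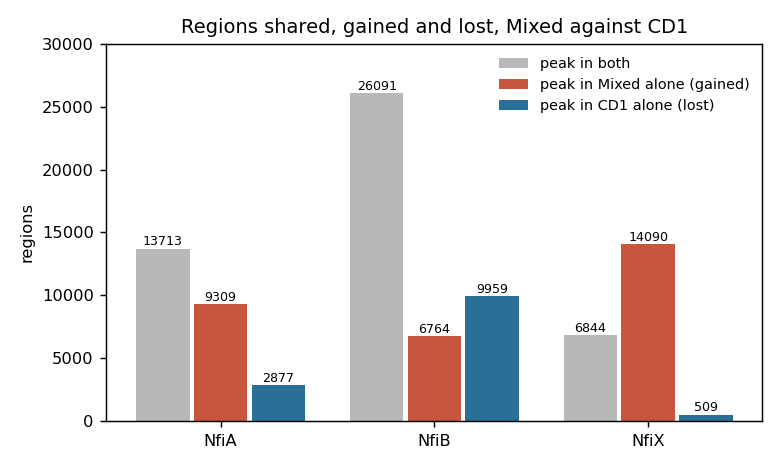
Number of regions (vertical axis) with a peak in both backgrounds, in Mixed alone (gained) or in CD1 alone (lost), for each factor (horizontal axis), from 1 library per factor and background. Gains outnumber losses for NfiA (9309 against 2877) and NfiX (14090 against 509), and losses outnumber gains for NfiB (9959 against 6764).

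Gained and lost peaks were mostly the weak ones of their lists. The median gained peak stood at the 28.4th percentile of the NfiA Mixed list, the 21.1st of NfiB and the 37.1st of NfiX, ranked by p-value, with medians of 20, 18 and 18 fragments at the summit. The median lost peak stood at the 22.1st, 23.1st and 18.9th percentile of the CD1 lists, with 14, 18 and 12 fragments. Shared regions had medians of 34, 32 and 35 fragments in the Mixed lists.

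Some regions changed in more than 1 factor. Gains in all 3 factors numbered 659, or 1.43% of the 46070 regions, and losses in all 3 numbered 64, or 0.139%. A further 4874 regions were gained in 2 factors and lost in none, and 743 were lost in 2 and gained in none. Opposite changes, a gain in one factor and a loss in another, were found in 2112 regions. NfiA and NfiX had 4262 gains in common, which is 45.8% of the NfiA gains and 30.2% of the NfiX gains, with NfiX gained in 65.7% of its regions in any case. NfiA and NfiB had 1436 in common, 15.4% and 21.2% of their gains. At equal list length within a factor the order was the reverse, with 501 common gains for NfiA and NfiX and 756 for NfiA and NfiB. NfiA and NfiB lost 803 regions in common, 27.9% of the NfiA losses and 8.06% of the NfiB losses. Over all regions of each factor, NfiA was gained in 35.9% and lost in 11.1%, and NfiB was gained in 15.8% and lost in 23.3%. Whether the common gains and losses exceed these shares was not tested. At equal list length within a factor, 68 regions were gained in all 3 and 110 lost in all 3, and with all 6 lists cut to 7497 peaks 319 were gained and 189 lost. Which direction was the more frequent thus depended on the list lengths used.

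To set apart the larger changes, a gain or loss was counted as beyond the calling limit only if the peak's height, at its lower 95% Poisson limit and scaled to the other library, would have passed that list's weakest p-value with over 95% chance. Between libraries, the scaling was the median ratio of summit heights, Mixed over CD1, 1.42 for NfiA, 0.942 for NfiB and 1.78 for NfiX. It was taken at strong regions of the 4 libraries of the other factors where the factor itself had a peak in both backgrounds. For NfiX, 2879 of 3283 strong regions had both peaks. Local background was scaled by its own median ratio at these regions, 1.38 for NfiA, 1.04 for NfiB and 1.11 for NfiX. By this rule NfiA had 375 gains (1.45% of its regions) and 275 losses (1.06%), NfiB 639 gains (1.49%) and 565 losses (1.32%), and NfiX 223 gains (1.04%) and 191 losses (0.891%). This scaling centres each pair of libraries, so the balance of gains and losses follows from it. With the ratio of the lowest local backgrounds (1.04 for NfiB and 1.12 for NfiX), NfiB had 402 gains and 898 losses and NfiX 1787 gains and 23 losses. In 2 or 3 factors, 53 regions were gained beyond the limit (0.115% of all regions) and 76 lost (0.165%), and 4 gains and 14 losses were beyond it in all 3. With the background scaling, 199 regions were gained and 59 lost in 2 or 3 factors.

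Where one factor was gained beyond the limit, the others were seldom lost, a count to be read beside the shares at the end of this paragraph. Of the 639 such gains of NfiB, NfiA was gained in 379 and lost in 12, and NfiX was gained in 333 and lost in 0. Of the 565 NfiB losses, NfiA was lost in 183 and gained in 49, and NfiX was lost in 53 and gained in 56. The last pair is the only one of the 12 such comparisons, besides the NfiA losses read in NfiX (39 lost and 69 gained), in which opposite changes were the more frequent. Over all its regions NfiX was gained in 65.7% and lost in 2.37%, NfiA in 35.9% and 11.1%, and NfiB in 15.8% and 23.3%. These shares bear on the changes in the same direction as well as on the opposite ones, and agreement beyond them was not tested. A single region was gained beyond the limit in one factor and lost beyond it in another, an intron of Dcaf4 (chr12:83536135-83536460).

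The strongest of the regions gained in all 3 factors lay in an intron of Cyp7b1, which encodes an oxysterol hydroxylase, 19.7 kb from the start of Bhlhe22, a neuronal bHLH transcription factor (chr3:18073685-18074165). Its summit held 55 fragments for NfiA, 47 for NfiB and 53 for NfiX in Mixed, and no CD1 list had a peak there. The needed height in CD1 was 6, 7 and 6 fragments, against 38.7, 49.9 and 29.7 predicted from the Mixed peaks. In the NfiA and NfiX Mixed lists it ranked above 97.6% and 98.0% of peaks. No other member of the 659 ranked as high on average.

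Other strong gains sat in introns of genes of varied function. In an intron of Abca13, an ABC transporter gene, the Mixed summits held 35, 82 and 34 fragments for NfiA, NfiB and NfiX (chr11:9213614-9214235). In Rab27a, a small GTPase of vesicle transport, they held 45, 75 and 37 (chr9:73082233-73082886). The gene Ano1, for a calcium-activated chloride channel, had 55, 68 and 34 (chr7:144612560-144613236), and Slc6a5, the neuronal glycine transporter gene, had 31, 36 and 30 (chr7:49946795-49947157). None of these 4 had a peak in any CD1 list. The same was true of the RNA splicing factor gene Rbm20 (34, 38 and 25 fragments), of the sulfotransferase gene Ust (47, 63 and 43) and of Wdr86 (48, 56 and 38), whose sequence is given above. The promoter of 4930539E08Rik, at 0.794 kb from its start, had 50, 43 and 37 fragments in Mixed and no peak in CD1 (chr17:28904750-28905074).

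Some of the strongest gains were far from any protein-coding start. At chr5:47317066-47318009, with the nearest start 665 kb away, the Mixed summits held 132 fragments for NfiB and 99 for NfiX, and CD1 had a peak of 29 for NfiB alone. The authors' deposited fold there in Mixed was 28 for NfiA, 33.9 for NfiB and 33.7 for NfiX. A second gain lay 16.2 kb from it, with 33, 37 and 16 fragments in Mixed and no CD1 peak. On chromosome 2 a pair of gains lay 6.49 kb apart (chr2:123799190-123799805 and chr2:123806294-123806853). The first had 51, 69 and 46 fragments in Mixed and 20 for NfiB in CD1, and the other had 50, 58 and 40 in Mixed and no CD1 peak. Among the gains beyond the calling limit in 2 or 3 factors, 22 of 53 (41.5%) were over 100 kb from a protein-coding start, as were 32 of the 76 losses (42.1%) and 32.9% of all regions.

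Losses in all 3 factors were led by an intron of Adgrl3, the gene of latrophilin 3, an adhesion receptor of synapses (chr5:81085051-81085708). The CD1 summits held 38 fragments for NfiA, 48 for NfiB and 35 for NfiX, and no Mixed list had a peak. A different Adgrl3 intron site was gained in all 3 with low peaks, 13, 17 and 14 fragments in Mixed (chr5:81568781-81569059). At Nps, the neuropeptide S gene, an intron site held 35, 55 and 33 fragments in CD1 and none was listed in Mixed (chr7:135270930-135271421). On chromosome 1 an intergenic site had 43, 54 and 39 in CD1 alone (chr1:69319213-69319780).

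Of the further sites lost in all 3 that are named below, 7 had lower CD1 summits for NfiA and NfiX than for NfiB. These fragments are not scaled between libraries, and the median CD1 summit held 22 for NfiA, 28 for NfiB and 21 for NfiX. A site near 1500015O10Rik (chr1:43684821-43685138), also among the 15 strongest, had 22, 17 and 20 in CD1. A lost site near Helt (chr8:46253672-46254021) is a different one from the gained site shown above. There the highest CD1 summit was that of NfiX (14, 21 and 42 fragments for NfiA, NfiB and NfiX). Cadps2, a regulator of dense-core vesicle release, had 25 fragments for NfiA, 48 for NfiB and 20 for NfiX in CD1 (chr6:23522544-23522951). Near Gfra2, the neurturin co-receptor gene, the values were 28, 60 and 23 (chr14:71004687-71005184). In the potassium channel genes Kcnma1 and Kcnq3, intron sites held 20, 51 and 18 (chr14:23856964-23857423) and 19, 43 and 15 (chr15:66282148-66282459). The intron sites in Lrrc66 (23, 54 and 21) and Lrch1 (25, 56 and 23) and one in Prkab1, the gene of an AMP kinase subunit (23, 38 and 26), followed the same pattern. None of these sites had a Mixed peak of any factor.

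In 20 of the 53 gains and 13 of the 76 losses the third factor had a peak in both backgrounds. Near the chemokine gene Cxcl14 (chr13:56283057-56283933) CD1 held 80, 161 and 46 fragments for NfiA, NfiB and NfiX, and Mixed had a peak of 26 for NfiB alone. Near Mrps23, a mitochondrial ribosomal protein gene (chr11:88197132-88197596) it was the reverse, with 62, 64 and 75 in Mixed and 21 for NfiB alone in CD1. At the promoter of Il16, a cytokine gene, Mixed held 56, 70 and 57 and CD1 had 42 for NfiB alone (chr7:83735402-83735892). At these sites the factor with a peak in both backgrounds was NfiB, whose 2 lists are the longest of the 6. Near Rora, a nuclear receptor gene of cerebellar development, the same pattern held, with 47, 58 and 46 in Mixed and 24 for NfiB in CD1.

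**Figure D2:**
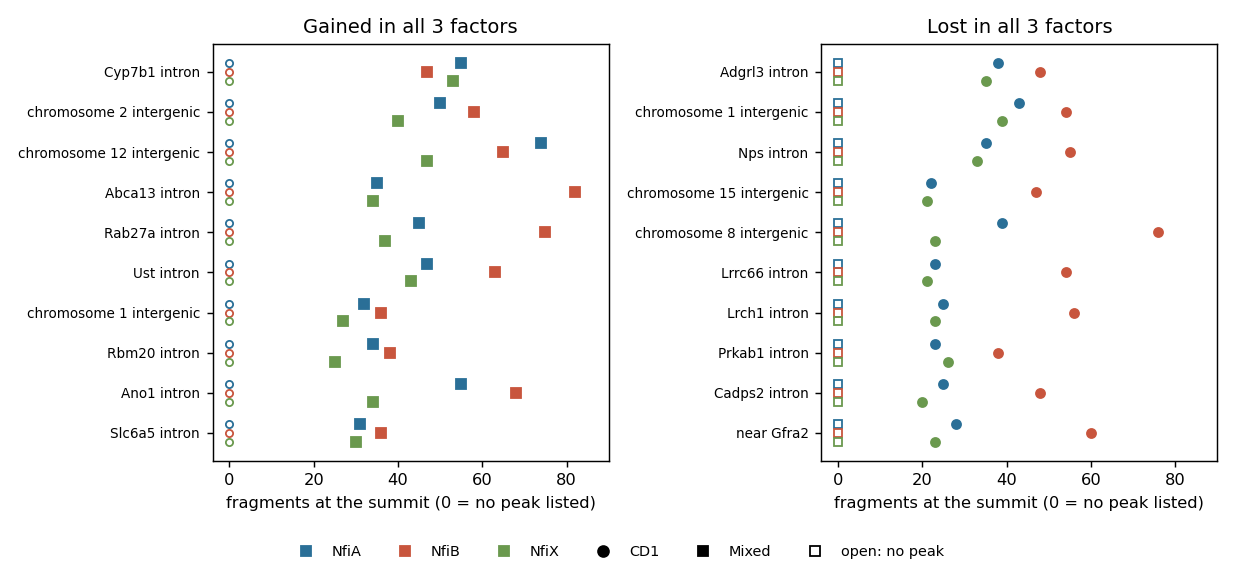
Fragments at the summit (horizontal axis) of the 10 strongest regions gained in all 3 factors (left) and lost in all 3 (right), by mean rank in the lists that hold them, with the factor as colour, CD1 as circles, Mixed as squares, and open symbols at 0 where no peak was listed. Mixed summits of the gained regions reach 82 fragments in Abca13, and CD1 summits of the lost regions reach 76 on chromosome 8.

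Of the 53 gains, 6 had another such gain or loss within 100 kb, as did 4 of the 76 losses. Such gains made up 0.115% and such losses 0.165% of all regions. How many would have a neighbour of this kind if spread like all regions was not computed, so these counts do not show whether changed sites came in groups. Within 100 kb of the gains lay 37 regions that all 6 libraries shared, and the median log2 difference of their height, Mixed less CD1, was 0.13. For the losses there were 66, with a median of -0.02. By the height test described further on, 3 of the 37 were higher and 0 lower in Mixed, and of the 66 near losses 2 were higher and 2 lower. Over all 6062 regions shared by the 6 libraries, 4.27% were higher and 2.1% lower, and the counts near changed sites were not tested against these shares. Near Rnaseh2b, a ribonuclease subunit gene, a lost site (chr14:62383106-62383772; 24 fragments for NfiA and 60 for NfiB in CD1) lay 6.05 kb from a shared one that was higher in Mixed (chr14:62389817-62390663). The shared site had 21 and 86 fragments for NfiA in CD1 and Mixed, 56 and 100 for NfiB, and 22 and 56 for NfiX. Sites of opposite direction thus lay next to each other there.

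By chromosome, the losses were uneven. Chromosome 14 held 14 of the 76 losses in 2 or 3 factors (18.4%) and 11 of the 64 lost in all 3, with 4.37% of all regions. They were spread from 11.7 to 74.9 Mb. Besides Kcnma1, Gfra2 and Lrch1, they included introns of Zmiz1 (20, 49 and 18 fragments in CD1) and Peli2 (19, 43 and 11) and a site near Stc1 (20, 66 and 15, with 14 for NfiB in Mixed). A pair of them lay 1.68 kb apart at Gm21738, and without these, and a region on an unplaced contig, 12 of 73 losses were on chromosome 14. The same chromosome held 2 of the 53 gains. Chromosomes 16, 18 and X held no gain and no loss beyond the calling limit in 2 or 3 factors, with 3.81%, 3.52% and 1.71% of all regions.

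Peak numbers per chromosome differed little. The X chromosome held 1.42% of NfiA peaks in CD1 and 1.54% in Mixed, 1.52% and 1.65% of NfiB peaks, and 1.47% and 1.61% of NfiX peaks. The mean log2 ratio, Mixed over CD1, was 0.12 ± 0.01 (SD over 3 factors), higher in 3 of 3. The exact two-sided sign-flip permutation test gave p = 0.25, the smallest that 3 factors allow, and 0.625 after Benjamini-Hochberg adjustment over the chromosomes. The chromosome 14 share was lower in Mixed in 3 of 3 factors (mean log2 ratio -0.08 ± 0.04, p = 0.25 by the same exact test, adjusted 0.625). Chromosomes 4, 12 and 16 were also lower in 3 of 3 factors, and 7, 11 and 18 were higher, each with these same p-values by that test. The X chromosome and chromosome 14 were thus not alone in this.

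**Figure D3:**
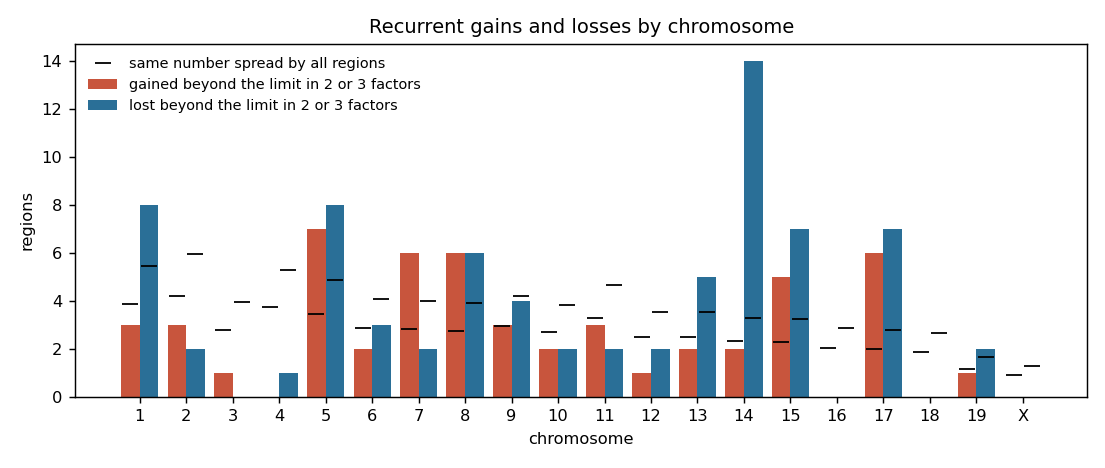
Number of regions (vertical axis) gained or lost beyond the calling limit in 2 or 3 factors, by chromosome (horizontal axis). Dashes mark the number each chromosome would hold if the 53 gains or 76 losses were spread like all 46070 regions. Chromosome 14 stands out with 14 losses and 2 gains.

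Gained regions were more often at promoters than shared ones. A promoter here is the 1 kb on either side of a protein-coding start. For NfiA 7.14% of gained and 4.26% of shared regions were at promoters, for NfiB 10.2% and 7.63%, and for NfiX 4.68% and 2.45%. The mean difference was 2.57 percentage points (SD 0.33, n = 3 factors, higher in 3 of 3), and the exact test of signs over factors, a permutation test, gave p = 0.25. It was 2.66 points at equal list length. The gain at promoters came with fewer intergenic sites, -3.91 points on average, in 3 of 3 factors. Among gains beyond the calling limit, 8.27% for NfiA, 8.29% for NfiB and 3.59% for NfiX were at promoters, with 95% Wilson limits of 5.88 to 11.5%, 6.40 to 10.7% and 1.83 to 6.92%.

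Lost regions had no common direction. Promoters held 11.0% of the NfiB losses, 3.40 points above its shared regions, but 3.96% of the NfiA losses and 1.77% of the NfiX losses, 0.30 and 0.69 points below theirs. The mean over factors was 0.81 points (SD 2.25; exact sign-flip permutation p = 1), and without NfiB it turned to -0.49. Promoters gained in all 3 factors included those of zinc finger genes: Zfp444 (45, 43 and 28 fragments in Mixed), Zfp712 (26, 25 and 28) and Zfp687 (25, 35 and 21). A promoter of Rbfox3, which encodes the neuronal marker NeuN, had 27, 30 and 20 in Mixed (chr11:118911408-118912017), and that of Il1rapl1, a synaptic organiser gene, had 14, 11 and 9. None of these 5 had a peak in CD1.

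**Figure D4:**
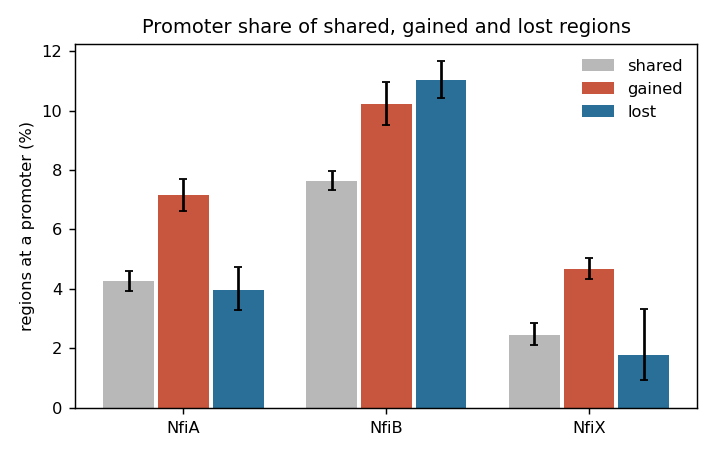
Percentage of shared, gained and lost regions whose summit is at a promoter (vertical axis) for each factor (horizontal axis), with 95% Wilson intervals for counting error. Gained bars stand above shared bars for all 3 factors, and the lost bar does so for NfiB alone.

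The share of windows with the palindrome was lower in gained than in shared regions, by little for NfiB. The sequence could be read for the 4.32 to 10.3% of regions whose window of 50 bases to either side of the summit lies in an exon or a RefSeq promoter, so these shares describe transcribed and promoter sites only. For NfiX, 21 of 298 shared windows (7.05%, 95% Wilson limits 4.66 to 10.5%) and 7 of 893 gained windows (0.784%, upper limit 1.61%) held it. NfiA had it in 2.57% of 818 shared and 0.508% of 787 gained windows, and NfiB in 0.777% of 2187 and 0.718% of 696. The mean difference was -2.79 points (SD 3.17, lower in 3 of 3; exact sign-flip permutation p = 0.25). Arms 8 bases apart instead of 5, as a comparison, were found in 0 to 0.144% of windows.

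Single elements gave the same order. TTGGCA was in 27.9% of shared and 23.1% of gained windows for NfiA, 20.9% and 16.7% for NfiB, and 36.2% and 25.3% for NfiX. The mean difference was -6.62 points, in 3 of 3 factors (SD 3.75; exact sign-flip permutation p = 0.25). Lost regions were also lower in 3 of 3, but unevenly. The differences were -0.24 points for NfiA, -7.50 for NfiB and -27.2 for NfiX (mean -11.6, SD 13.9). The NfiA difference was small, and the NfiX value rests on 2 of 22 windows. Of 679 regions gained in all 3 factors, or beyond the limit in 2 or 3, 47 could be read. The palindrome was in 0 of these 47, which allows a share of up to 6.38%, and TTGGCA was in 15. Only 2 lost regions of this kind could be read, and they held neither. Of 32851 RefSeq promoters, with or without a peak, 14.1% held TTGGCA in their 300 bp. It was in 44 of the 141 promoters (31.2%) that held the summit of a region gained in 2 or 3 factors. For regions lost in 2 or 3 it was in 1 of 7. A region under more than 1 promoter was counted for each. Promoters at shared regions were not counted, so these shares do not set gained sites apart from other bound ones.

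Losses of NfiA included sites of a different kind, in coding exons. In Esr1 and Cdk2, the genes of the estrogen receptor alpha and of a cell cycle kinase, 3 and 2 regions had a peak for NfiA in CD1 and in none of the other 5 libraries. Those of Esr1 held 19 to 66 fragments and those of Cdk2 33 and 61. The fold enrichment as deposited by the authors ran from 9.97 to 25.0 in Esr1 and was 12.7 and 20.6 in Cdk2, at a local background of 0.940 to 2.01 fragments. All of these regions of Esr1 and Cdk2 were beyond the calling limit. Nrp1, a semaphorin co-receptor gene, had a further 2, weaker at 8 and 10 fragments and within the limit.

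The summit was inside the exon in each case, 30 to 145 bp from its nearer edge. The windows of the Esr1 and Cdk2 regions could all be read, and TTGGCA was in 0 of them, while the bare arm TTGGC was not counted. In the other lists, regions of a single library with a summit in a coding exon had a highest fold of 6.56 for NfiA in Mixed, 7.67 and 7.90 for NfiB, and 8.67 for NfiX in Mixed, and NfiX in CD1 had 0. The genes were singled out after their values were seen, and the source of these exon peaks was not tested.

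Height was compared in the 6062 regions with a peak in all 6 libraries. Sites that fell below the calling limit in any library are left out, so the set itself depends on the calls. Log2 fragments at the summit, scaled to equal medians, were fitted with limma for background with the factor as a block. After Benjamini-Hochberg adjustment over all 6062, 259 regions (4.27%) were higher and 127 (2.1%) lower in Mixed, 386 (6.37%) in all. Without the block the same test called 2 higher and 3 lower, with 779 regions at an unadjusted p under 0.05. The share of calls that were higher was 67.1% with median scaling, 55.7% with cyclic loess and 46.5% on the authors' deposited fold, so the balance of directions depends on the scaling. Of the 386, 385 had the same sign in all 3 factors, and 11 of the higher and 15 of the lower passed 2-fold.

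Regions lower in Mixed changed by the most. Near Tmem196 (chr12:119881716-119882220) NfiA had 54 fragments in CD1 and 23 in Mixed, NfiB 137 and 27, and NfiX 35 and 20. The log2 difference was -1.81 ± 0.18 (SE, 3 factors; limma adjusted p = 1.6e-05). An intergenic site on chromosome 9 (chr9:112573234-112573905) had 41 and 13, 87 and 25, and 29 and 12, a difference of -1.92 ± 0.20 (limma adjusted p = 2.32e-05). At both, every Mixed library was below its CD1 partner.

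Among regions higher in Mixed were sites in introns of Thrb, the thyroid hormone receptor beta gene, and of Amer3. The Thrb site (chr14:17900360-17900933) had 46 fragments for NfiA in CD1 and 115 in Mixed, 78 and 144 for NfiB, and 26 and 90 for NfiX. Its log2 difference was 0.98 ± 0.13 (SE; limma adjusted p = 0.000189), since part of the raw rise is taken up by the scaling. The Amer3 site had 55 and 140, 131 and 176, and 33 and 120, with 0.86 ± 0.12. A promoter site at D7Ertd443e had 18 and 75, 53 and 85, and 18 and 63, with 1.17 ± 0.17. The highest value, 1.20 ± 0.14, was on chromosome 12 (chr12:26205805-26206511).

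**Figure D5:**
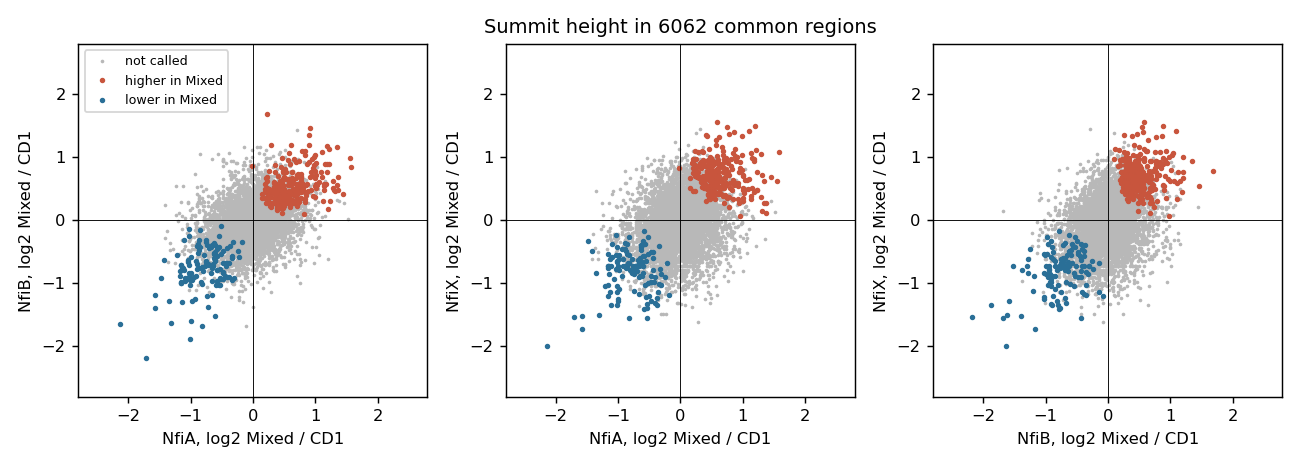
Log2 difference in scaled summit height, Mixed less CD1, of each of the 6062 common regions, 1 factor against another in each panel. Coloured points passed the limma test over the 3 factors (259 higher, 127 lower), and they lie in the upper right and lower left since that test asks for a shared direction.

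Across these 6062 regions the differences of 2 factors correlated with Pearson's r of 0.42 for NfiA and NfiB, 0.33 for NfiA and NfiX, and 0.40 for NfiB and NfiX. This is a description over regions, which are not replicates, and libraries of 1 background may share their source. In 1353 regions (22.3%) all 3 factors were higher and in 1291 (21.3%) all 3 were lower. The SD of single differences was 0.40, 0.37 and 0.45 for NfiA, NfiB and NfiX.

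By gene list, most shares of called regions were near the 6.37% of all common regions or rested on few regions. For axon guidance genes, 2 of 33 common regions (6.06%) passed, at Sema6d (0.93 ± 0.17, limma adjusted p = 0.00455) and Plxna4 (0.56 ± 0.12), a semaphorin and a plexin, both higher. Of 30 regions of neuronal migration genes 2 (6.67%) were higher, at the reelin pathway adaptor Dab1 (0.58 ± 0.16) and the polarity gene Pard3 (0.82 ± 0.16). Glutamate and GABA receptor genes had 4 of 19 (21.1%), with Grik3 (0.44 ± 0.13) and Grm7 (0.76 ± 0.22) higher and Grik2 (-1.01 ± 0.24) and Grm4 (-0.71 ± 0.16) lower. Of 39 regions of cell adhesion genes 2 (5.13%) passed, at the protocadherins Pcdh7 and Pcdh15, both higher. The calcium channel gene Cacna1d was also higher. Of 9 regions of immediate early and stress genes, 1 was higher, at Ier5, and 1 lower, at Egr3. For Sema6d, Pard3 and Grik2 the call was kept under each of 3 other scalings of height, whereas Grik3, Pcdh15 and Grm7 kept it under 1.

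The median log2 difference was 0.19 for the receptor regions, 0.09 for axon guidance and 0.14 for migration, against -0.00245 over all common regions. None of the 14 regions at genes of the nuclear factor I family, the 12 of the Sonic hedgehog pathway, the 16 of Zic and granule lineage factors or the 9 of cell cycle genes passed, and with 6.37% called over all regions a list of this size would hold few or no calls. The medians of these 4 lists were 0.05, 0.04, -0.05 and 0.03.

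Gains and losses were also read by gene, within 100 kb of a protein-coding start. Over all such genes, 11.7% of 30922 regions were gained in 2 or 3 factors and lost in none, and 1.46% lost in 2 or 3 and gained in none. In all 3 factors 1.37% were gained and 0.116% lost. The share gained in 2 or 3 was 16.4% of 201 regions for granule neuron maturation genes (33 regions), 14.6% of 137 for synaptic organisers and 12.7% of 205 for axon guidance. For Zic and granule lineage factors it was 7.47% of 241, for the Sonic hedgehog pathway 4.88% of 82, for the nuclear factor I family 7.79% of 77 and for cell cycle genes 5.48% of 73. Losses in 2 or 3 reached 4.44% of 90 regions for Notch pathway genes and 2.59% of 309 for cell adhesion genes. The lists were chosen with results of these data known, and no test was made of them.

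Single members gained in all 3 were mostly weak intron sites. Nfia itself had one, 78.2 kb from its start, with 22 fragments for NfiA, 31 for NfiB and 18 for NfiX in Mixed (chr4:97958150-97958484). In Gli2, a transcription factor of the Sonic hedgehog pathway, the values were 24, 32 and 22 (chr1:119015159-119015439). Dclk1, a microtubule kinase gene of migrating neurons, had 25, 21 and 26, and the plexin gene Plxna1 28, 31 and 23. Receptor genes with such a site were Gabrd (20, 22 and 27), Gabrb2 (11, 13 and 12), Gabbr2 (26, 35 and 25) and Gria1 (23, 21 and 14), and the sodium channel gene Scn2a had 26, 35 and 16. None of these had a CD1 peak at the site. Among all lists Adgrl3, Kcnq3 and Kcnma1 were the members with a site lost in all 3.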

How the data were processed

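Peak lists of 6 ChIP-seq libraries were analysed. Per the submitters' processing notes, Bowtie2 2.2.6, SAMtools 1.4.1 and MACS2 2.1.0 were used with build mm10. Each peak carries the fold enrichment (a ratio), -log10 p and q-values as deposited by the authors, and an integer score and a summit offset that were not used as measurements. How inputs entered the calls is not given in the sources used here. Whole summit fragments and local background were recovered from the deposited fold and p-value (100% of peaks within 0.002 in -log10 p). Regions were peaks merged at 1 bp overlap. Annotation was GENCODE vM21, of the same build, and genes were named by the nearest protein-coding start within 100 kb. Shares carry Wilson intervals (95%), which cover counting error only. Tests were the exact sign-flip permutation over 3 factors (smallest p 0.25) and limma 3.58.1 in R 4.3.3 with Benjamini-Hochberg adjustment over all regions. The scripts were tested on simulated data. Named were, in part, the 15 strongest regions gained or lost in all 3 factors, the 8 furthest beyond the calling limit per factor and direction, the 10 common regions of smallest p per direction, and list members gained or lost in all 3; sites of 2-factor change that are named besides were chosen after their values were seen. Members, lists and tests were chosen with earlier results of these data known. Alternatives were the overlap rule, peak threshold, list length, scaling, limits, promoter width and each factor left out. Some sites that meet these rules are not reported here.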

Additional observations from a re-analysis of the deposited data

Results flagged for a closer look

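The balance of gains and losses differed between factors, which was not tested. Gained less lost regions came to 6432 for NfiA, -3195 for NfiB and 13581 for NfiX. The same sign pattern is seen in the list lengths.

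Lost regions were more often at promoters than shared ones for NfiB, by 3.40 percentage points, and less often for NfiA (-0.30 points) and NfiX (-0.69 points). That difference between factors was not tested. The palindrome share of lost less shared regions also differed in sign, at 0.72 points for NfiA, -0.28 for NfiB and -2.50 for NfiX, on 5, 5 and 1 lost windows that held it. It was not tested either.

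An intron of Dcaf4 (chr12:83536135-83536460) was gained beyond the calling limit by one factor and lost beyond it by another. NfiA had a peak of 39 fragments in Mixed and none in CD1, and NfiB had one of 37 in CD1 and none in Mixed. NfiX had 21 in CD1 and 24 in Mixed. With 1 library per factor and background the difference was not tested.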

How the results depend on the processing

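Of 107 values under alternatives, 59 stayed within 1.5 times the reported count or kept direction and side of the threshold, 46 counts moved further and 2 differences turned sign. The location and motif tests could not pass 0.05 with 3 factors, so they say nothing on stability. Depth limits the weak peaks, and a peak missing from a list is not shown to be absent.

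With equal list length within a factor, gains were 4740 for NfiA and 2451 for NfiX, losses 4575 for NfiA and 2368 for NfiX, and 68 regions were gained and 110 lost in all factors. With all 6 lists cut to 7497 peaks, gains were 2086, 1696 and 2452 for NfiA, NfiB and NfiX, losses 1708 for NfiB and 2372 for NfiX, and 319 were gained and 189 lost in all. Leaving out 1 factor, regions gained in both others numbered 1387 to 4262 and lost in both 120 to 803.

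Beyond the calling limit, scaling by the lowest local background gave 402 gains and 898 losses for NfiB, 1787 gains and 23 losses for NfiX, and 199 gains in 2 or 3 factors. With 99% limits, gains were 74, 156 and 38 and losses 59, 143 and 42 for NfiA, NfiB and NfiX, and 12 gains and 20 losses recurred. Leaving out 1 factor left 7 to 31 recurrent gains and 25 to 50 losses. Chosen after seeing the data, leaving out Gm21738 and the unplaced contig left 73 recurrent losses.

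The authors' fold gave 53 common regions higher and 61 lower in Mixed, and the fit with no replicate block 2 and 3. Leaving out 1 factor gave 98 to 408 higher and 54 to 295 lower, the highest counts without NfiX, where 13131 regions were tested. The pairing is by factor, as the design sets it. The promoter share of lost less shared regions was -0.49 points without NfiB (range -0.49 to 1.55 over factors left out), and the palindrome share 0.22 without NfiX (range -1.39 to 0.22).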

Other observations

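Lists of genes of other cell types differed in how many genes had a region, to be read against 9957 of all 21910 protein-coding genes. Astrocyte and Bergmann glia genes had one at 15 of 15 genes, 62 regions in all, of which 6 were gained in 2 or 3 factors and lost in none. Oligodendrocyte lineage genes had a region at 5 of 10 genes, 19 in all, of which 1 was gained in all 3 factors, near the myelin gene Mog (30, 32 and 22 fragments for NfiA, NfiB and NfiX in Mixed). Genes of microglia, blood and vessels had one at 7 of 17 genes, 17 regions, and the one gained in all 3 was near Cd34 (15, 21 and 12 fragments). Genes of Purkinje cells and interneurons had one at 11 of 12, with 24 regions. All 24 genes of the Zic and granule lineage list had a region, 241 in all. Peaks of this kind do not measure which cells were present.

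Zinc finger genes had 380 regions, with 12.6% gained in 2 or 3 factors and lost in none. Olfactory and vomeronasal receptor genes had 83 regions at 64 of 1465 genes (10.8%), and ribosomal protein genes 107 (7.48%), against 11.7% of regions near all protein-coding genes.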
